A study of Arabidopsis thaliana with 12 samples.

Results

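Transcripts of 5 Arabidopsis genes were followed through leaves of 4 EDS1 genotypes: AT5G03350, AT1G19960, AT5G24200, AT5G55450 and AT5G26690. They are 5 of the 32678 genes in the count table, and were chosen by the values of these same libraries: the levels were low in the R493A and eds1-2 groups and high in both groups with wild-type EDS1. Those differences are therefore a description of the choice, and no test is given for them.

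EDS1 is a lipase-like protein that pairs with its relatives PAD4 or SAG101. It is needed by the receptors of the TIR-NLR class, which include the pair that recognises the bacterial effector AvrRps4. Its signalling raises salicylic acid, which acts through the receptor NPR1 and its partner transcription factors to induce defence genes, and it also feeds N-hydroxypipecolic acid synthesis, which spreads resistance through the plant.

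The R493A libraries came from plants carrying EDS1 with the change R493A, the eds1-2 libraries from the mutant allele of that name, the w.tEDS1 libraries from a line carrying wild-type EDS1, and the Col-0 libraries from the wild-type accession. There were 3 libraries per genotype, each from the leaves of 4 pooled plants that were 4 weeks old. All plants had been infiltrated with Pseudomonas syringae pv. tomato carrying AvrRps4 at an OD600 of 0.005 and sampled 4 h later, so no value here measures induction by the bacteria. The labels state neither the genetic background of the R493A and w.tEDS1 lines nor how many independent lines were used, and do not say whether the 3 pools of a genotype were grown or infiltrated apart, so the spread between them may be partly technical. Counts assigned to genes summed to between 19273912 and 24572145 per library. None of the 5 leaf mesophyll, 5 guard cell or 4 phloem markers was at 0 in all 3 libraries of a genotype. Mesophyll markers summed to between 23201 and 26936 CPM (gene counts scaled to a common library total, after TMM normalization) in R493A, 27143 and 31352 in eds1-2, 26542 and 29207 in w.tEDS1 and 18042 and 24756 in Col-0, so that Col-0 lay below eds1-2 and w.tEDS1, and R493A below eds1-2, without overlap. Phloem markers summed to between 589 and 676 CPM in R493A, 635 and 695 in eds1-2, 600 and 751 in w.tEDS1 and 577 and 626 in Col-0, with Col-0 wholly below eds1-2. Guard cell markers, at 40.0 to 107 CPM, overlapped among all 4 genotypes. The part of these marker levels in the results was not tested. eds1-2 replicate 1 and R493A replicate 2 were sequenced on another run than the other 10 libraries. The first principal component of all tested genes, 40.4% of the variance, set Col-0 replicates 1 and 2, the only libraries of their lane, apart at -69.9 and -97.5, against -4.11 to 50.1 for the other 10.

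EDS1 itself (AT3G48090), read as a check of the labels, had 31.1, 23.5 and 19.4 CPM in R493A leaves, 3.81, 4.09 and 3.93 CPM in eds1-2 leaves, 124, 196 and 111 CPM in w.tEDS1 leaves and 32.5, 72.0 and 23.2 CPM in Col-0 leaves. The mutant was lowest in every library, and R493A overlapped Col-0 but not w.tEDS1. EDS1 rose in w.tEDS1 against Col-0 (log2 fold change 1.76 ± 0.37 SE, edgeR adjusted p = 0.0498) and fell in R493A against w.tEDS1 (-2.54 ± 0.38, adjusted p = 0.0256). The difference of R493A against eds1-2, 2.65 ± 0.40 log2 units, missed the threshold (adjusted p = 0.0570). The variant and the lower EDS1 transcript of its line against w.tEDS1 cannot be told apart. EDS1 has a near-identical neighbour, EDS1B, so its count is uncertain.

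The bases upstream of each gene are shown because the 5 genes were chosen for one pattern and salicylic acid responses are read out through short promoter motifs: the W box (TTGAC, bound by WRKY factors), the TGA box (TGACG, bound by the TGA partners of NPR1) and GAAATTT (the core of a site bound by SARD1 and CBP60g). They run 5′ to 3′ on the gene's strand up to the base before its annotated start, from the RefSeq TAIR10.1 genome. For 4 genes they hold 250 bases, and for AT5G55450 the 127 bases that lie outside the preceding gene, AT5G55440. Capitals mark the 3 motifs on either strand, merged where they overlap.
AT5G03350: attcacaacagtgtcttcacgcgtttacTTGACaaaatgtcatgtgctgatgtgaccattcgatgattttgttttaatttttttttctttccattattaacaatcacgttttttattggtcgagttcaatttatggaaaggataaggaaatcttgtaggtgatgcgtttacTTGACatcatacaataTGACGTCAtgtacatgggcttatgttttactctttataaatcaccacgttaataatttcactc
AT1G19960: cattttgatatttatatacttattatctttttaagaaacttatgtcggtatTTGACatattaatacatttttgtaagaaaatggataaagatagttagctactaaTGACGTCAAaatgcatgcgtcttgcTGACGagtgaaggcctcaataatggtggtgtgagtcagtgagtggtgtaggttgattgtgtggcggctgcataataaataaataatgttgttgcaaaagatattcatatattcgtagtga
AT5G24200: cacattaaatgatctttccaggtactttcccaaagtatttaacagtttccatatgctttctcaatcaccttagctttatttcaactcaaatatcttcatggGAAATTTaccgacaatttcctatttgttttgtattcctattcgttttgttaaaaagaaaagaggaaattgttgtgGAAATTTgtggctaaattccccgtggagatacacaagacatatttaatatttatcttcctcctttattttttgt
AT5G55450: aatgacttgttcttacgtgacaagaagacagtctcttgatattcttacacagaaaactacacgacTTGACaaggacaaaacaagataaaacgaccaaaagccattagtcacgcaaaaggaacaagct
AT5G26690: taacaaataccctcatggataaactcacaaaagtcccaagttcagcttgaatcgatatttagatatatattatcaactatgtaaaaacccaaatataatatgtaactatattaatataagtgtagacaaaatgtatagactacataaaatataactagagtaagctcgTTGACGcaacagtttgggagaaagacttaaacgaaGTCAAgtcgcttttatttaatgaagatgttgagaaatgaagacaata

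The windows are chr5:816671-816920 on the minus strand for AT5G03350, chr1:6927486-6927735 for AT1G19960, chr5:8202669-8202918 for AT5G24200, chr5:22467210-22467336 for AT5G55450 and chr5:9310547-9310796 for AT5G26690, the last 4 on the plus strand. In the full 250 bases, a W box stood before 4 of the 5 genes, against 44.9% of 27443 promoters of protein-coding genes. A TGA box stood before 3 of the 5, against 18.6%. GAAATTT occurred only before AT5G24200, at 2 places, against 12.5% of promoters with at least 1. In AT5G03350 and AT1G19960 a pair of TGA boxes on opposite strands overlapped to form the palindrome TGACGTCA, 63 to 56 bases before the first start and 145 to 138 before the second. It was searched after these sequences had been seen, and 0.503% of promoters held it. In AT1G19960 that palindrome also overlaps a W box on the other strand, and in AT5G26690 a W box and a TGA box share 4 bases. These matches are letters only, and no binding was measured.

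AT5G03350 encodes a legume lectin-like protein of 274 residues, known as SAI-LLP1 for its induction by salicylic acid and counted among the proteins of systemic acquired resistance; it lies at chr5:815610-816670 in a single exon. It had 6.29, 7.46 and 6.79 CPM in R493A leaves and 9.22, 7.92 and 5.27 CPM in eds1-2 leaves. It had 71.0, 349 and 141 CPM in w.tEDS1 leaves and 233, 45.7 and 102 CPM in Col-0 leaves. All 6 libraries with wild-type EDS1 lay above the 6 others, the lowest of them 4.96 times the highest of R493A and eds1-2. Among the 18770 genes tested, 1.11% had the 2 sets of 6 apart in this direction and 0.0746% in the opposite one; since the 5 genes were chosen for it, nothing is read from their share. The fitted log2 fold changes were -4.08 ± 0.66 (SE) for eds1-2 against Col-0, -4.64 ± 0.68 for eds1-2 against w.tEDS1, -4.21 ± 0.67 for R493A against Col-0 and -4.77 ± 0.69 for R493A against w.tEDS1. In bulk leaf RNA, fewer cells expressing a gene and less RNA per cell cannot be told apart. Its last 50 bases overlap AT5G03345 on the opposite strand, and the library kit did not mark strand.

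AT1G19960 (chr1:6927736-6928656) is annotated as a transcription factor, but its longest coding region is 195 bases of a 921-base exon and encodes 64 residues; no function is assigned to it here. It had 2.70, 3.71 and 2.42 CPM in R493A leaves and 2.39, 2.37 and 2.59 CPM in eds1-2 leaves. It had 16.9, 41.0 and 29.3 CPM in w.tEDS1 leaves and 33.6, 10.5 and 12.6 CPM in Col-0 leaves. The groups with wild-type EDS1 did not overlap the others, and the lowest stood 2.83 times above the highest. The log2 fold changes were -2.95 ± 0.46 for eds1-2 against Col-0, -3.57 ± 0.47 for eds1-2 against w.tEDS1, -2.68 ± 0.45 for R493A against Col-0 and -3.30 ± 0.46 for R493A against w.tEDS1.

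AT5G24200 (chr5:8202919-8205824) encodes an alpha/beta-hydrolase of 344 residues that holds the Gly-X-Ser-X-Gly motif of serine hydrolases; EDS1 and PAD4 share the fold of this large superfamily. It had 0.885, 1.14 and 0.360 CPM in R493A leaves and 1.45, 0.990 and 0.910 CPM in eds1-2 leaves. It had 8.01, 22.2 and 11.2 CPM in w.tEDS1 leaves and 14.8, 25.3 and 8.80 CPM in Col-0 leaves. The sets were apart by a factor of 5.52. The log2 fold changes were -3.85 ± 0.52 for eds1-2 against Col-0, -3.61 ± 0.52 for eds1-2 against w.tEDS1, -4.33 ± 0.54 for R493A against Col-0 and -4.09 ± 0.54 for R493A against w.tEDS1.

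AT5G55450 (chr5:22467337-22468306) encodes a lipid-transfer protein of 104 residues with the 8 cysteines typical of this family of small, usually secreted proteins, in which they brace a pocket for lipids. It had 1.51, 1.74 and 0.772 CPM in R493A leaves and 1.65, 0.904 and 0.958 CPM in eds1-2 leaves. It had 6.85, 17.0 and 16.1 CPM in w.tEDS1 leaves and 10.6, 12.1 and 3.73 CPM in Col-0 leaves. The gap was the narrowest of the 5 genes: Col-0 replicate 3 was 2.14 times the highest R493A library. The log2 fold changes were -2.90 ± 0.51 for eds1-2 against Col-0, -3.49 ± 0.52 for eds1-2 against w.tEDS1, -2.70 ± 0.51 for R493A against Col-0 and -3.30 ± 0.51 for R493A against w.tEDS1. An antisense long non-coding RNA, AT5G08275, is annotated across it and was not analysed here.

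AT5G26690 (chr5:9310797-9311572) encodes a protein of 114 residues from the heavy metal transport and detoxification superfamily, whose domain carries metal ions between proteins in other organisms. It was counted only 1, 0 and 1 times in R493A leaves and 3, 1 and 1 times in eds1-2 leaves. It was counted 43, 181 and 92 times in w.tEDS1 leaves and 106, 108 and 22 times in Col-0 leaves. The gene was thus near the detection limit in R493A and eds1-2 and readily counted in the other 2 groups, at a lowest level of 1.09 CPM in Col-0 replicate 3 against a highest of 0.118 CPM in eds1-2 replicate 1. Over the group totals it was 67.6-fold lower in eds1-2 than in w.tEDS1 (exact 95% binomial interval 28.7 to 209.7), 50.9-fold lower in eds1-2 than in Col-0 (21.5 to 158), 155-fold lower in R493A than in w.tEDS1 (42.6 to 1286) and 117-fold lower in R493A than in Col-0 (32.0 to 970.5). These intervals give the precision of the ratios from counting error only, not the spread between libraries, and are no test of differences for which the gene was chosen; the fitted fold changes of this gene depend on the prior count. It passed the filter on low counts solely through the groups where it was high, and AT5G24200 passed in 2 of 3 R493A libraries; the other 3 genes passed in all 12. The last 127 bases of AT5G26690 overlap AT5G26680 on the opposite strand.

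**Figure D1:**
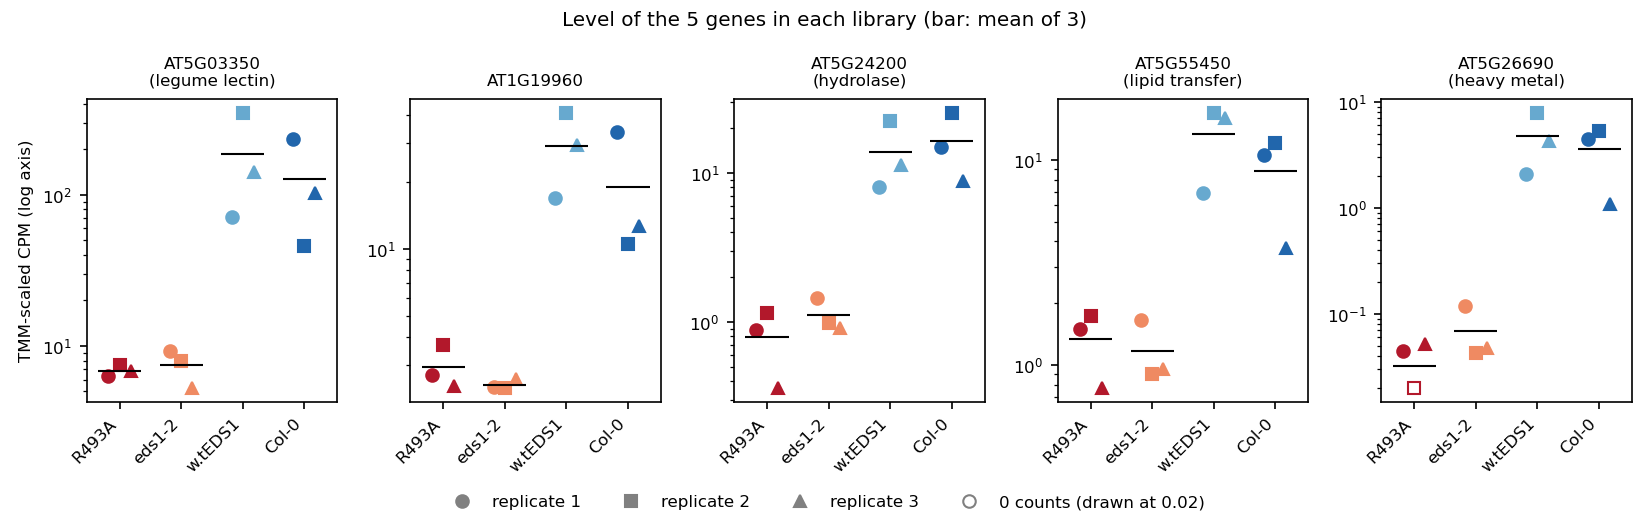
TMM-scaled CPM (log axis, separate scale for each gene) of the 5 genes in each library of the 4 genotypes; marker shape gives the replicate number, bars the mean of 3, and the open marker stands for a count of 0. For every gene the R493A and eds1-2 libraries lie below all w.tEDS1 and Col-0 libraries, by the narrowest margin, 2.14 times, for AT5G55450.

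Per kilobase of exon, AT5G03350 was the most abundant of the 5 transcripts in each genotype. It averaged 6.45 ± 0.56 CPM per kb in R493A, 7.04 ± 1.90 in eds1-2, 176 ± 137 in w.tEDS1 and 120 ± 90.8 in Col-0 (SD, n = 3 each). AT1G19960 came next, at 3.20 ± 0.74 CPM per kb in R493A, 2.66 ± 0.13 in eds1-2, 31.6 ± 13.1 in w.tEDS1 and 20.5 ± 13.9 in Col-0. AT5G55450 followed with 1.53 ± 0.58 CPM per kb in R493A, 1.34 ± 0.47 in eds1-2, 15.2 ± 6.4 in w.tEDS1 and 10.06 ± 5.10 in Col-0. Its libraries with wild-type EDS1 overlapped those of AT5G24200 and of AT5G26690. AT5G24200 averaged 8.30 ± 4.46 CPM per kb in w.tEDS1 and 9.80 ± 5.03 in Col-0. AT5G26690 averaged 7.74 ± 4.77 in w.tEDS1 and 5.86 ± 3.60 in Col-0. In the low groups, AT5G24200 averaged 0.479 ± 0.240 CPM per kb in R493A and 0.672 ± 0.176 in eds1-2, above AT5G26690 at 0.0520 ± 0.0454 in R493A and 0.113 ± 0.068 in eds1-2. The order depends on the length used. With coding length in place of exon length, AT1G19960 stood above AT5G03350 in R493A, at 15.1 against 8.30 CPM per kb, and in eds1-2, at 12.6 against 9.06, and AT5G26690 stood above AT5G24200 in w.tEDS1, at 13.8 against 13.3 CPM per kb.

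The comparisons within each pair of groups were not named in the choice, but genes low in both R493A and eds1-2 and high in both w.tEDS1 and Col-0 are alike within each pair in part because of it, so their values too are a description and nothing is read from the counts of calls. In w.tEDS1 against Col-0, 0 of the 5 genes passed the edgeR test, where 1.09% of all tested genes did. The log2 fold changes were 0.56 ± 0.58 (SE) for AT5G03350, 0.62 ± 0.41 for AT1G19960, -0.24 ± 0.44 for AT5G24200, 0.59 ± 0.45 for AT5G55450 and 0.40 ± 0.55 for AT5G26690. The 95% intervals reached from -0.71 to 1.83 for AT5G03350 and from -1.20 to 0.72 for AT5G24200, so differences within them are compatible with these data. The bounds are no limit of detection. EDS1 itself was 1.76 log2 units higher in w.tEDS1 in this comparison. For the 11 synthesis genes and regulators of salicylic acid and N-hydroxypipecolic acid the median log2 fold change here was -1.16, and 9 of them were highest in Col-0 replicate 2. It was -0.65 for 16 salicylic acid response genes, -0.88 for 6 other proteins of systemic acquired resistance and -0.78 for all 33 pathway genes. That of the 5 genes, chosen to be high in both groups, was 0.56, and that of all tested genes was -0.01. None of the 33 pathway genes passed the test either, and 7 had an unadjusted p under 0.05, against 4259 of all 18770 tested genes. DESeq2 called 2, where it called 1741 of all, and limma-voom called 0.

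In R493A against eds1-2, 0 of the 5 genes passed the test, where 0.0373% of all tested genes did. The log2 fold changes were -0.13 ± 0.62 for AT5G03350, 0.27 ± 0.47 for AT1G19960, -0.48 ± 0.58 for AT5G24200, 0.19 ± 0.54 for AT5G55450 and -1.06 ± 1.54 for AT5G26690, which rests on 2 and 5 counts and passed the filter only through the other groups. The interval for AT5G03350 ran from -1.49 to 1.24 and that for AT1G19960 from -0.76 to 1.29. EDS1 transcript averaged 24.7 ± 6.0 CPM in these R493A leaves and 3.94 ± 0.14 CPM in these eds1-2 leaves (SD, n = 3 each).

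R493A minus w.tEDS1 was then set against eds1-2 minus Col-0 in a test that 0.16% of all genes passed. The gap between these 2 differences was -0.69 ± 0.85 log2 units for AT5G03350, -0.35 ± 0.62 for AT1G19960, -0.24 ± 0.72 for AT5G24200, -0.40 ± 0.70 for AT5G55450 and -1.46 ± 1.66 for AT5G26690, and 0 of the 5 passed. In these 3 comparisons no gene of the 5 had an unadjusted p under 0.05, and neither DESeq2 nor limma-voom called any.

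**Figure D2:**
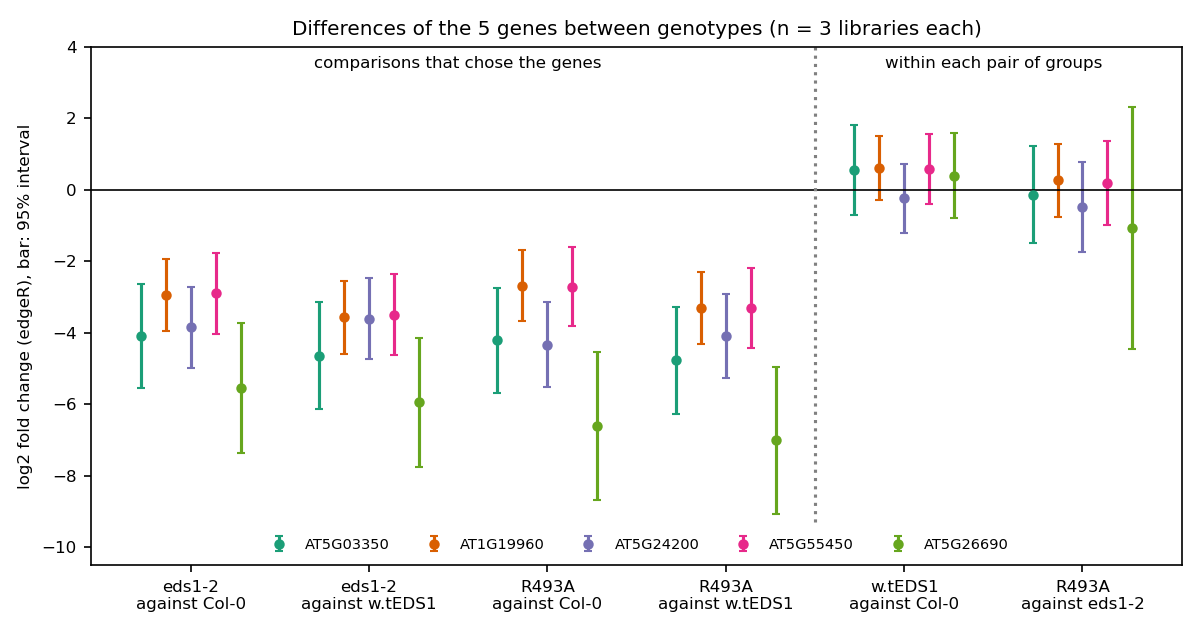
Log2 fold change from the edgeR fit (points) with its 95% interval (bars) for each of the 5 genes in 6 comparisons of genotypes with 3 libraries each. Left of the dotted line stand the comparisons that chose the genes, from -2.68 for AT1G19960 to -7.01 for AT5G26690, and right of it the 2 within each pair of groups, where every interval includes 0.

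Within the groups with wild-type EDS1 the genes varied widely, and in more than one pattern. In w.tEDS1 all 5 were highest in replicate 2, as were 39.1% of all tested genes, and lowest in replicate 1. EDS1 was also highest there. In Col-0, AT5G03350 and AT1G19960 were highest in replicate 1, as were 23.3% of tested genes, and lowest in replicate 2. AT5G24200, AT5G55450 and AT5G26690 were highest in replicate 2, as were 37.3% of tested genes, and lowest in replicate 3. AT5G03350 was 5.10 times as high in the highest Col-0 library as in the lowest, and AT5G26690 4.81 times. Of the 11 synthesis genes and regulators, 9 were highest in Col-0 replicate 2, among them ICS1, the main salicylic acid synthase, PAD4 and SARD1. The salicylic acid response genes were split, with 9 of 16 highest in replicate 1 and 7 in replicate 2. LURP1, a salicylic acid-responsive gene needed for basal defence against downy mildew, had 371, 64.4 and 68.3 CPM in the Col-0 libraries, highest where AT5G03350 was. Replicates 1 and 2 of Col-0 shared a lane that replicate 3 did not, and the part of the lane in these orders was not tested.

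**Figure D3:**
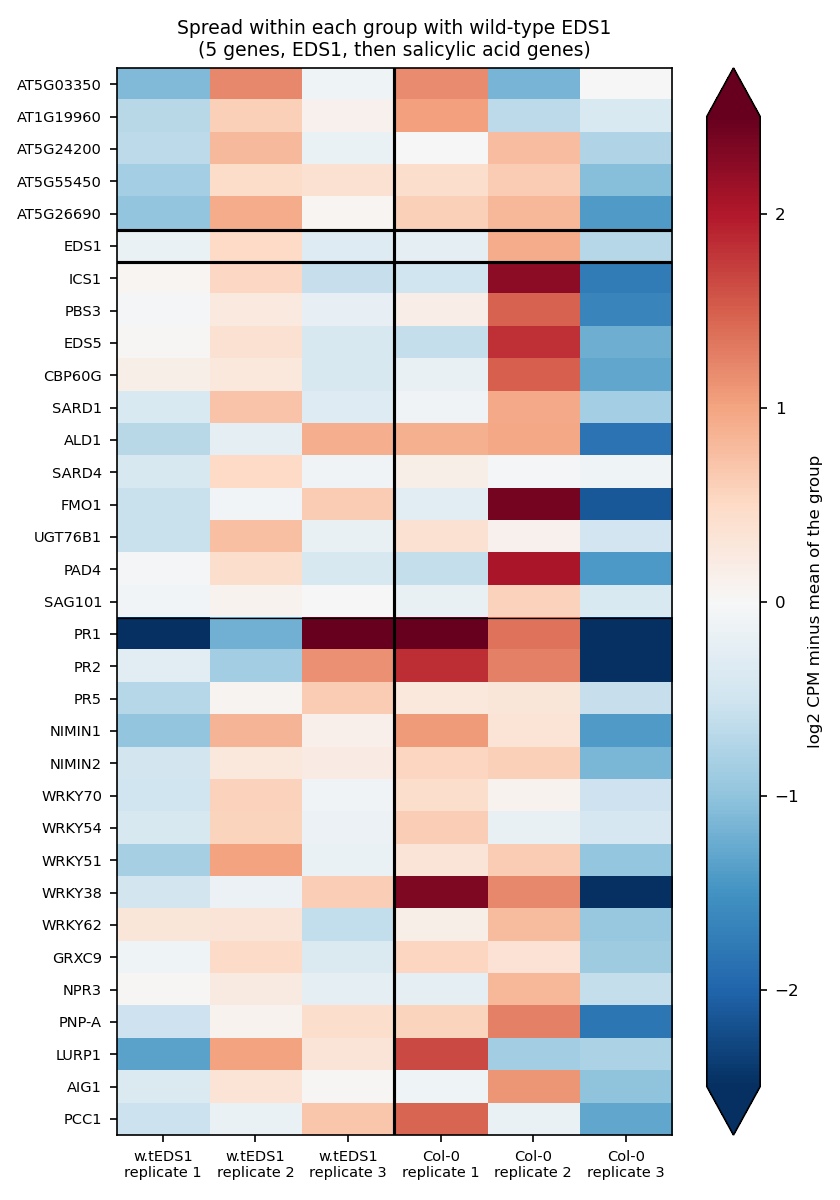
Log2 CPM of each gene minus the mean of its group in the 3 w.tEDS1 and 3 Col-0 libraries, for the 5 genes, EDS1, 11 synthesis genes and regulators and 16 salicylic acid response genes; values beyond the colour scale have the end colours. All 5 genes are highest in w.tEDS1 replicate 2, and in Col-0 the first 2 genes peak in replicate 1 and the other 3 in replicate 2.

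In R493A, replicate 2 was highest for 4 of the 5 genes, and in eds1-2, replicate 1 was highest for 4 of the 5; these are the 2 libraries of the other sequencing run, in which 37.7% of tested genes in R493A and 40.2% in eds1-2 were also highest, and its part in the levels was not tested.

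For each gene the closest profiles were taken as those with the smallest root mean square difference of log2 CPM over the 12 libraries, after subtraction of each gene's own mean. Much of that likeness lies in the contrast that chose the 5 genes, so it is a description. AT5G03350 was closest to LURP1 (0.573 log2 units, against a median of 2.22 over 18769 genes), which averaged 5.89 ± 2.64 CPM in R493A, 6.08 ± 3.30 in eds1-2, 198 ± 131 in w.tEDS1 and 168 ± 176 in Col-0. AT1G19960 was closest to RLP34, a receptor-like protein (0.434, median 1.62), and then to an ankyrin protein, AT5G54610 (0.549). AT5G24200 was closest to SARD1, a transcription factor that switches on salicylic acid synthesis (0.511, median 2.08), which averaged 8.13 ± 0.82 CPM in R493A, 10.6 ± 0.8 in eds1-2, 77.7 ± 36.0 in w.tEDS1 and 123 ± 76.4 in Col-0. AT5G55450 was closest to the transcription factor gene WRKY50 (0.439, median 1.66), and AT5G26690 to WRKY51 (0.799, median 3.02), which like it was almost absent in R493A (0.107 ± 0.048 CPM) and eds1-2 (0.187 ± 0.013 CPM), against 5.78 ± 3.80 CPM in w.tEDS1 and 9.13 ± 4.42 CPM in Col-0. WRKY54 and WRKY70 were among the 5 closest to both AT5G03350 and AT5G24200. Of the 5 genes themselves, the closest pair was AT1G19960 and AT5G55450, at 0.532, with 1 tested gene closer to the first of them. The farthest was AT1G19960 and AT5G26690, at 1.65.

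Relatives of the 5 proteins were followed for comparison. BLASTP found 61 homologs (E under 1e-10 over at least 50% of the protein): 48 of AT5G03350, mostly lectin receptor kinases, 8 of AT5G24200, 4 of AT5G55450, 1 of AT5G26690 and none of AT1G19960. Of these 38 were tested, and 0 passed the edgeR test in R493A against w.tEDS1, where 0.224% of all tested genes did, or in eds1-2 against w.tEDS1, where 0.0746% did. At an unadjusted p under 0.05 there were 3 in the first and 6 in the second comparison, against 864 and 499 of all 18770 tested genes. DESeq2 called 2 in each, where it called 155 and 84 of all, and limma-voom called 0. The median log2 fold change of the homologs was -0.07 in R493A and -0.08 in eds1-2 against w.tEDS1, against 0.01 over all tested genes in both. Against Col-0 it was -0.36 in R493A and -0.50 in eds1-2, against 0.01 and -0.01 over all tested genes. There, 1 homolog was higher and 2 were lower in each of R493A, where 1.77% of all tested genes were called, and eds1-2, where 2.04% were. DESeq2 called 8 in R493A and 9 in eds1-2 against Col-0, limma-voom 2 in each, and edgeR without Col-0 replicate 3 called 10 and 14. Left out singly, R493A replicate 2 or 3 lowered the R493A count to 1, and eds1-2 replicate 1 or 2 lowered the eds1-2 count to 1.

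Of the 3 lectins most like AT5G03350, LLP2 (AT3G16530, 65.8% identity) and LLP3 (AT3G15356, 62.9%) were abundant in all genotypes, and AT1G53080 (64.1%) had 26 counts over the 12 libraries and was not tested. LLP2 averaged 285 ± 98.0 CPM in R493A, 209 ± 77.9 in eds1-2, 219.6 ± 138.2 in w.tEDS1 and 414 ± 213 in Col-0. Its log2 fold change was 0.37 in R493A and -0.07 in eds1-2 against w.tEDS1, where AT5G03350 had -4.77 and -4.64. LLP3 had 0.35 and -0.17. Against Col-0, LLP2 had -0.54 in R493A and -0.99 in eds1-2 and LLP3 had -0.50 and -1.02, and none of these passed the test. DIR1, the lipid-transfer protein needed for long-distance resistance signalling and 36.1% identical to AT5G55450, had log2 fold changes of 0.21 in R493A and 0.12 in eds1-2 against w.tEDS1 and did not pass either (adjusted p 0.999 and 1.00).

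**Figure D4:**
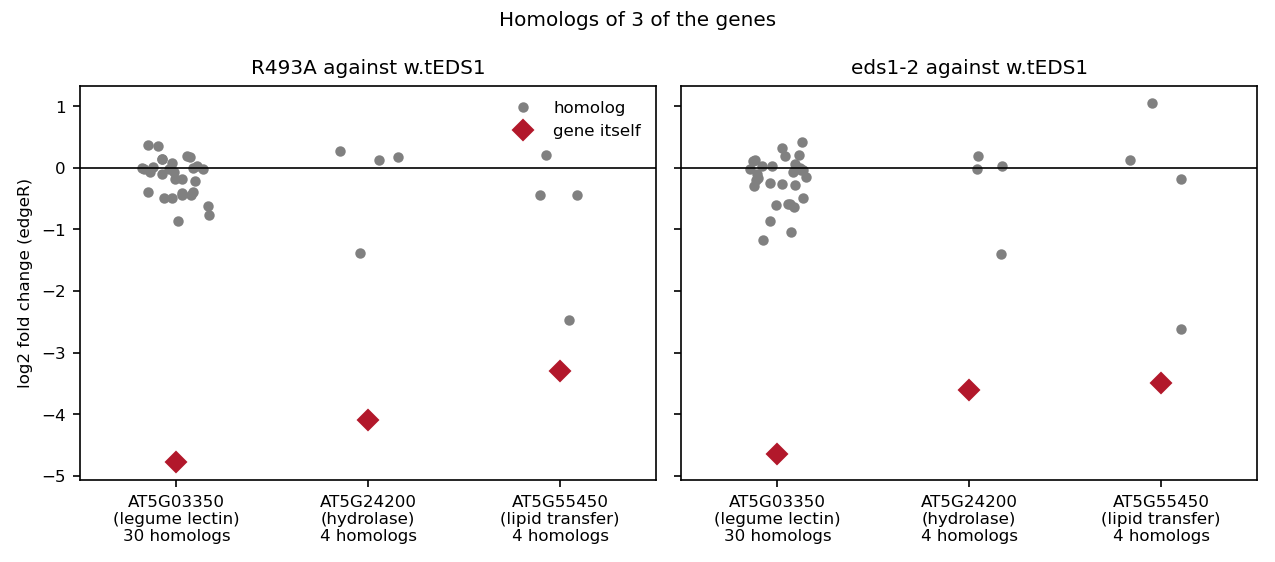
Log2 fold change in R493A (left) and eds1-2 (right) against w.tEDS1 of each tested homolog (grey, spread sideways for sight) of 3 genes and of the genes themselves (red diamonds). The 30 tested lectin homologs lie between -0.87 and 0.37 in R493A and between -1.17 and 0.42 in eds1-2, and the lowest homologs of the other 2 are AT5G24210, at -1.39 and -1.40, and AT5G55460, at -2.47 and -2.62.

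Both exceptions lie beside their relatives on the chromosome, but other relatives differed less. AT5G55410, 63.0% identical to AT5G55450, had log2 fold changes of -0.44 in R493A and -0.19 in eds1-2 against w.tEDS1. Against Col-0 it had -1.58 and -1.33. AT5G24230, 54.7% identical to AT5G24200, had 0.26 and 0.20 against w.tEDS1, and -1.54 and -1.61 against Col-0. None of these was called. AT5G24190, 1867 bases from AT5G24200, had 15 counts over the 12 libraries and was not tested. AT5G55460, 47.6% identical to AT5G55450 and starting 272 bases after its end on the same strand, had 0.576, 0.733 and 0.515 CPM in R493A leaves and 0.471, 0.645 and 0.527 CPM in eds1-2 leaves. It had 2.51, 4.01 and 3.65 CPM in w.tEDS1 leaves and 2.77, 5.84 and 1.04 CPM in Col-0 leaves. The 6 libraries with wild-type EDS1 lay above the other 6 in this gene too. Its log2 fold change was -2.39 ± 0.52 for R493A against Col-0 (adjusted p = 0.0443) and -2.54 ± 0.52 for eds1-2 against Col-0 (adjusted p = 0.0376), in comparisons where 1.77% and 2.04% of tested genes passed. Against w.tEDS1 it was as large, -2.47 ± 0.52 in R493A and -2.62 ± 0.52 in eds1-2, but missed the threshold (adjusted p = 0.138 and 0.180). The calls against Col-0 were lost in 17 of 21 alternative settings. With lane as a covariate the fold changes were -0.82 in R493A and -0.72 in eds1-2. In that fit Col-0 rests on replicate 3 alone, since replicates 1 and 2 were the only libraries of their lane. Col-0 replicate 3 was the lowest Col-0 library for this gene. Without Col-0 replicate 2 the fold changes were -1.65 (adjusted p = 0.109) in R493A and -1.80 (adjusted p = 0.0868) in eds1-2.

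AT5G24210, 62.6% identical to AT5G24200 and the next gene but 11366 bases away, had 52.5, 43.9 and 43.8 CPM in R493A leaves and 45.7, 44.6 and 49.0 CPM in eds1-2 leaves. It had 76.8, 188 and 102 CPM in w.tEDS1 leaves and 149, 203 and 142 CPM in Col-0 leaves. It too was apart in all libraries, at a smaller distance than AT5G24200. It fell in R493A (-1.82 ± 0.28, adjusted p = 0.00861) and in eds1-2 (-1.83 ± 0.28, adjusted p = 0.00997) against Col-0, and missed the threshold against w.tEDS1, with -1.39 ± 0.27 in R493A (adjusted p = 0.106) and -1.40 ± 0.27 in eds1-2 (adjusted p = 0.169). The calls against Col-0 were lost in 4 of 21 settings each, among them without R493A replicate 2 (adjusted p = 0.0623) or 3 (0.0646) and without eds1-2 replicate 1 (0.0657) or 2 (0.0632). Of the 20 annotated neighbours of the 5 genes, 2 on either side of each, 13 were tested, and those called in R493A against Col-0 were AT5G24210, AT5G55460 and AT5G03360, a C1 domain protein gene 5406 bases from AT5G03350 (-1.75 ± 0.37, adjusted p = 0.0396, lost in 16 of 21 settings). The first 2 of these were called in eds1-2 against Col-0. Against w.tEDS1 none of the 13 was called. An unadjusted p under 0.05 was found for 3 in R493A and 4 in eds1-2, against 864 and 499 of all 18770 tested genes. DESeq2 called 2 in each, where it called 155 and 84 of all, and limma-voom called 0.

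The salicylic acid pathway around the genes was followed with 33 genes in 3 lists, all of them tested and written with earlier results of these libraries known. In R493A against w.tEDS1, 5 of the 33 were lower, where 0.208% of all tested genes were, and in eds1-2 against w.tEDS1 also 5, where 0.0746% were; none was higher. As single libraries were left out, these counts ran from 1 to 13 in R493A and from 0 to 13 in eds1-2, both highest without Col-0 replicate 3. They were the same genes in both: SARD1, NIMIN1, whose protein binds NPR1, and the transcription factor genes WRKY70, WRKY54 and WRKY51. The log2 fold change against w.tEDS1 was -3.25 in R493A and -2.88 in eds1-2 for SARD1, -3.49 and -3.34 for WRKY70, and -4.70 and -5.87 for NIMIN1. The 16 response genes had a median of -3.06 in R493A and -3.10 in eds1-2, the 11 synthesis genes and regulators -1.88 and -2.02, and the 6 other proteins of systemic acquired resistance 0.11 and 0.02. Against Col-0 the counts were larger, with 17 of 33 lower in R493A, where 1.51% of all tested genes were. In eds1-2, 18 of 33 were lower, where 1.44% of all tested genes were, and none was higher in either. Of these, 11 in each were response genes, and 6 and 7 were from the list of synthesis genes and regulators. DESeq2 called 25 in R493A and 24 in eds1-2 against Col-0, and limma-voom 11 in each. No count is given for a fit with lane as a covariate, in which Col-0 replicate 3 alone stands for Col-0. The part of the lane in these counts was not tested. With 1 library left out, edgeR called from 5 (without R493A replicate 2 or 3) to 26 (without Col-0 replicate 3) in R493A, with 9 without R493A replicate 1 and 11 without Col-0 replicate 1. In eds1-2 it called from 6 (without eds1-2 replicate 1) to 27 (without Col-0 replicate 3), with 7 without eds1-2 replicate 2 or 3, 10 without Col-0 replicate 1 and 12 without R493A replicate 2. The counts over all genes in these fits with 1 library left out are not given here. Among the 6 proteins of systemic acquired resistance, AZI1 and EARLI1, lipid-transfer proteins like AT5G55450, had log2 fold changes of -0.02 and 0.01 in R493A and 0.31 and 0.74 in eds1-2 against w.tEDS1. AED1, an apoplastic aspartyl protease induced in this resistance, had -1.48 in R493A and -1.67 in eds1-2 against w.tEDS1 (adjusted p = 0.318 and 0.388). None of the 6 passed in any of the 6 comparisons, and 1 or 0 had an unadjusted p under 0.05 in each. DESeq2 called 1 in R493A and 1 in eds1-2 against w.tEDS1, where it called 155 and 84 of all tested genes. It called 0 in the other comparisons, and limma-voom called 0. In R493A against eds1-2 none of the 33 passed, none had an unadjusted p under 0.05, and both other tools called 0.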

How the data were processed

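Poly(A) RNA of 12 leaf pools was measured, 3 for each of 4 genotypes. The deposited table holds raw counts per gene, made by the authors; per the submitters' processing notes TopHat2, HTSeq and limma were used with TAIR build 10, in versions not given in the sources used here. Strand was not kept, since the labels name the TruSeq v2 kit. Entries that name no gene took 9.69% to 22.9% of a column and were left out. The counts were fitted in R 4.3.3 with edgeR 4.0.16 (filterByExpr, 18770 genes kept; TMM scaling; quasi-likelihood test with genotype as the only term, 8 residual degrees of freedom; prior count 0.125), with Benjamini-Hochberg adjustment over these 18770 genes and a threshold of 0.05. The fit was also run on simulated counts for w.tEDS1 against Col-0 only. These were drawn with dispersions estimated from these libraries and without run or lane effects, so nothing is read from them about the other comparisons or those effects. DESeq2 1.42.0 and limma 3.58.1 were alternatives. Homologs came from BLASTP 2.17.0, and gene models and sequences from RefSeq TAIR10.1, to which 31912 of 32678 gene IDs matched. Replicate numbers were not taken as pairs in the main fit. No pair of libraries of the same genotype agreed within sampling noise, and pairs across genotypes were not checked. Genes named are the 5 genes, EDS1, for each gene the 5 nearest profiles, its 2 neighbours on either side and its closest homologs, and genes of the pathway lists; the genes and lists were chosen with earlier results of these data known.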

Additional observations from a re-analysis of the deposited data

How the results depend on the processing

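Under 9 alternative settings and 12 that left out 1 library each, 0 of the 5 genes were called in w.tEDS1 against Col-0, in R493A against eds1-2 or in the difference of the 2 effects, wherever the setting gave a value; fits of the compared groups alone gave none for the last. In the 4 comparisons that chose the genes, the choice all but fixed the sign, so its being kept in all 21 settings tests nothing. Log2 fold changes, the lane fit included, ran from -7.41 for AT5G26690 to -1.51 for AT5G55450. Small differences within each pair of groups changed sign in some settings, with none called. In w.tEDS1 against Col-0 with 1 library left out, AT5G03350 ranged from -0.26 (without w.tEDS1 replicate 2) to 1.33, AT5G24200 from -0.76 to 0.22 (without Col-0 replicate 2; 0.04 without w.tEDS1 replicate 1) and AT5G26690 from -0.17 (without w.tEDS1 replicate 2; -0.03 without Col-0 replicate 3) to 0.76, and with lane as a covariate AT5G24200 was 0.65. In R493A against eds1-2, AT5G03350 ranged from -0.33 to 0.052 (without eds1-2 replicate 1) and AT5G55450 from -0.046 (without R493A replicate 2) to 0.53; AT5G03350 was 0.0065 with lane as a covariate, and AT5G26690 was 0.063 in the main run alone and 0.064 with lane as a covariate. In the difference of effects, AT5G03350 ranged from -1.46 to 0.12 (without w.tEDS1 replicate 2) and AT5G24200 from -0.70 to 0.27 (without w.tEDS1 replicate 2; 0.06 without Col-0 replicate 3, 0.09 without R493A replicate 3 and 0.0009 without eds1-2 replicate 1).

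Counts of calls moved more. In the fit with lane as a covariate, Col-0 replicate 3 alone stands for Col-0, so its count against Col-0 is not comparable with the others. The 204 genes called in w.tEDS1 against Col-0 became 1741 with DESeq2, 571 with sequencing run as a covariate, 26 with lane as a covariate and 39 in the compared groups alone, and ran from 39 (without w.tEDS1 replicate 3) to 2740 (without Col-0 replicate 3) when 1 library was left out; they were also 47 without Col-0 replicate 1, 86 without Col-0 replicate 2, 57 without w.tEDS1 replicate 1, and 105 to 128 without eds1-2 replicate 2 or 3 or R493A replicate 2 or 3. The 7 called in R493A against eds1-2 became 13 with no filter on low counts, 31 with DESeq2, 4 in the main run alone and 3 with lane as a covariate, and 3 to 13 with 1 library left out (13 and 11 without Col-0 replicate 3 or 2, and 3 or 4 without Col-0 replicate 1, w.tEDS1 replicate 1 or 3, R493A replicate 1 or 3 or any eds1-2 replicate). Of the pathway genes, the 5 called in eds1-2 against w.tEDS1 became 14 with DESeq2, 2 with limma-voom, 1 with run and 0 with lane as a covariate, 0 in the main run alone and 10 in the compared groups alone, and 0 (without eds1-2 replicate 1 or 3) to 13 (without Col-0 replicate 3) with 1 library left out, with 8 without Col-0 replicate 2, 3 without w.tEDS1 replicate 2, 2 without R493A replicate 1 or 2, and 1 without w.tEDS1 replicate 3, eds1-2 replicate 2 or R493A replicate 3. The 5 in R493A against w.tEDS1 became 14 with DESeq2, 3 with limma-voom, 1 in the main run alone, 0 with lane and 14 in the compared groups alone, and 1 (without R493A replicate 3) to 13 (without Col-0 replicate 3), with 9 without Col-0 replicate 2 and 2 without R493A replicate 1 or 2. Homologs called against w.tEDS1 were 2 with DESeq2 and 1 in the compared groups alone in both R493A and eds1-2, and 0 to 1 with 1 library left out (1 without Col-0 replicate 2 or 3 or w.tEDS1 replicate 1). The cause of these shifts was not tested.

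The replicate numbers were shared across groups, but only 3 of 18 same-numbered pairs of libraries had deviations correlated above 0.1 (range -0.48 to 0.35), so they were not taken as pairs. With the replicate number as a block the counts were 87 genes in w.tEDS1 against Col-0, 4 in R493A against eds1-2 and 3 pathway genes in eds1-2 against w.tEDS1. Coding length in place of exon length changed levels per kb, to 149 in place of 31.6 CPM per kb for AT1G19960 in w.tEDS1, and put AT1G19960 above AT5G03350 in R493A and eds1-2. With 3 libraries a group and up to 5-fold spread within it, 95% intervals of w.tEDS1 against Col-0 reached up to 1.83 log2 units (AT5G03350), and AT5G26690 rests on 2 and 5 counts in its low groups. Against Col-0, the replicate block left 9 pathway genes called in R493A and 11 in eds1-2, the main run alone 5 and 4, the compared groups alone 6 and 5, and run as a covariate 12 and 11, where 17 and 18 were called.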

Other observations

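AT3G45440, a lectin receptor kinase gene 30.6% identical to AT5G03350, was singled out after its values were seen. It averaged 8.38 ± 0.59 CPM in R493A, 7.95 ± 1.19 CPM in eds1-2, 8.84 ± 0.66 CPM in w.tEDS1 and 0.284 ± 0.176 CPM in Col-0 (SD, n = 3 each). The log2 fold changes against Col-0 were 4.87 in R493A, 4.80 in eds1-2 and 4.95 in w.tEDS1, and edgeR called all 3. It was the only tested homolog called higher against Col-0 in each of the 3 lines. Against w.tEDS1 its log2 fold change was -0.08 in R493A and -0.15 in eds1-2, neither of them called.

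AT2G32140, annotated as a transmembrane receptor, gave the best BLASTP hit of AT1G19960, 66.7% identity over 60 residues, at an E value of 1.01e-09 that missed the limit set for homologs. Its log2 fold change was -0.24 ± 0.59 (SE) in R493A and -0.44 ± 0.59 in eds1-2 against w.tEDS1, and -1.21 ± 0.59 in R493A and -1.41 ± 0.59 in eds1-2 against Col-0. None passed the edgeR test (adjusted p 0.999, 1.00, 0.285 and 0.186).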
